A study of Drosophila melanogaster with 6 samples.

Results

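The 56 genes described here had a high RNA level in a single library, the second of 3 made from the ventral outer proliferation centre. The outer proliferation centre is the epithelium of the larval fly optic lobe that gives rise to the medulla, the largest visual neuropil. The genes were chosen by their measured levels: a normalized count (reads divided by the library's size factor) of at least 50 in ventral replicate 2, and at least 3 times the highest of the other 5 libraries. They are 56 of 17559 genes in the table and 0.767% of the 7298 genes that reach 50 in that library. Since the levels themselves made the choice, every comparison of ventral replicate 2 with the other libraries is a description, and no test of it is given.

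The series has 3 ventral libraries (V1, V2 and V3) and 3 dorsal libraries (D1, D2 and D3) from Drosophila melanogaster brains of the late second larval instar, labelled female and raised at 25 °C. GFP-labelled neuroepithelial cells were taken up by hand with a glass micropipette within 1 h, and cells of 3 to 4 brains went into each library. The labels name no driver of the GFP, no genotype and no treatment, and by the labels the groups differ only in the side sampled. Nothing in the labels says whether the pools are separate crosses or collection days, and p-values therefore cover only the variation among these 6 pools, which may be technical. V2 was the smallest library with 21114019 counted reads, and the others held 24355227 to 27815885.

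The optic lobe neuroepithelium divides symmetrically, is patterned by spatially restricted transcription factors, and turns into neuroblasts at its edge; the neuroblasts then make neurons and glia. Synapse, channel and transmitter genes are used mainly by neurons. Heat shock genes encode chaperones that hold or refold damaged proteins and are induced by heat, wounding and other stress. In a pooled sample more cells of a type and more RNA per cell cannot be told apart.

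By the genes that separate the sides, V2 matched its ventral label. The dorsal zinc finger genes salm and salr stood at 1.2 and 6.2 normalized counts in V2, against 872.7 to 1483 for salm and 836.9 to 1432 for salr in the dorsal libraries. The ventral gene disco stood at 914.9 in V2, 1536 in V1 and 806.9 in V3, against 15.4 to 88.7 in the dorsal libraries. The dosage compensation RNA lncRNA:roX2, made mainly in males, stood at 76.5 in V2, 6532 and 5794 in V1 and V3, and 15416, 6615 and 0 in D1, D2 and D3. It was thus low in both V2 and D3. Its partner lncRNA:roX1 had 11416 in V2 and 11939 in D3, against 34950 to 80995 in V1, V3, D1 and D2. The high values in V1, V3, D1 and D2 are at odds with the female label. The sex of the animals was not tested. On the next principal component of log2 CPM after the leading one (24.6% of the variance) V2 scored -58.69, and the other libraries lay between -14.2 and 35.49.

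The same rule found 56 genes for V2, 120 for V1, 11 for V3, 13 for D1, 18 for D2 and 4 for D3. V2 and V1 thus held the 2 highest counts, and both are ventral, while V3 lay among the dorsal libraries. When V1 was left out of the comparison, 99 genes met the rule for V2, including all 56.

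**Figure D1:**
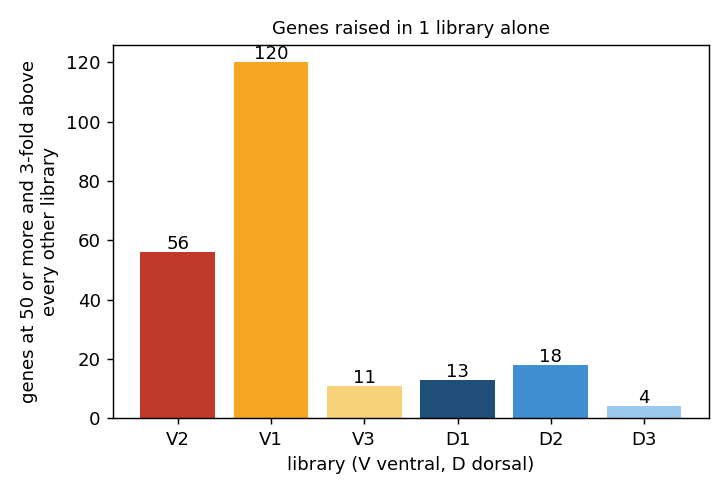
Number of genes (vertical axis) that reach 50 normalized counts and 3 times every other library, for each library (V ventral, D dorsal). The bars of V2 (56) and V1 (120) exceed those of the other 4 libraries (4 to 18).

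The 56 genes were of low to moderate level. Their levels in V2 ran from 50.6 to 1369, with a median of 96.3, and 27 reached 100. These levels rest on 41 to 1109 reads each. Together they held 0.0403% of V2's reads, against 0.00522% and 0.00477% in V1 and V3 and 0.00482% to 0.00526% in the dorsal libraries. The ratio of V2 to the highest other library ran from 3.04 to 34.0 with a median of 4.70. It was under 4 in 19 genes, 4 to 5 in 11, 5 to 10 in 18 and 10 or more in 8. With the exact 95% interval for counting error, the lower bound of the ratio was at least 3 in 31 genes and at least 2 in 55. The reads carry no molecular identifiers and PCR copies count as separate reads, so the intervals describe counting error alone. The intervals make no allowance for the choice of genes by these same counts, so the bounds are a description and no test of the ratio.

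At the edge of the rule, IA-2 (ratio 3.04), CG13055 (3.04) and Pdfr (3.05) lay just inside. Just outside were CG31176 (2.98), Hsp26 (2.96) and Hsp70Ab (2.96). The last of these are heat shock genes, so the threshold runs through that family.

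**Figure D2:**
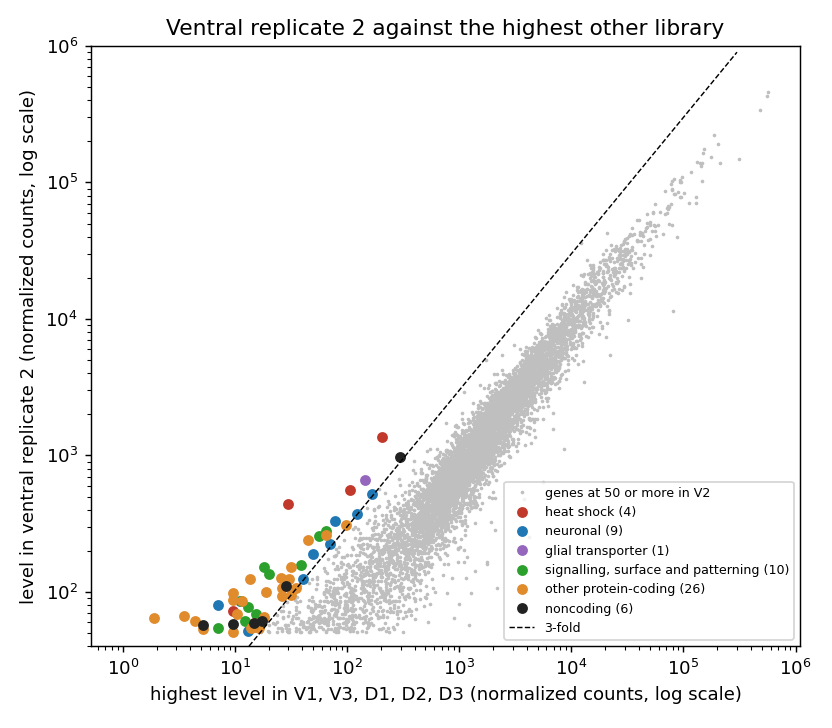
Level in V2 (vertical) against the highest level among V1, V3, D1, D2 and D3 (horizontal), both in normalized counts on log scales; each point is a gene at 50 or more in V2, coloured points are the 56 genes by role, and the dashed line marks 3-fold. The 56 genes sit between 50.6 and 1369 in V2, at the low end of the cloud.

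Chaperone genes gave 4 of the 56, among them the most abundant, with ratios of 5.35 to 14.9. Hsp68 (FBgn0001230, chromosome 3R, 24055080 to 24057310, minus strand, BDGP6), an inducible chaperone of the Hsp70 family, stood at 1369 normalized counts in V2, at 62.6 and 89.8 in V1 and V3, and at 204.3, 20.1 and 52.9 in D1, D2 and D3. V2 was 6.70 times the next library (95% interval 5.78 to 7.80). Hsp67Bc (FBgn0001229, chromosome 3L, 9371511 to 9372497), a small heat shock protein gene, had 561.8 in V2, 92.0 and 105.1 in V1 and V3, and 58.8, 42.8 and 0.94 in D1, D2 and D3. The dorsal value of 0.94 was 1 read, so the other libraries differed widely among themselves. Hsp70Bc and Hsp70Aa, 2 of the 6 Hsp70 copies in the table, were also members. Hsp70Bc (FBgn0013279) had 444.5 in V2, 0 in V1 and V3, and 29.9, 2.6 and 4.7 in D1, D2 and D3. Hsp70Aa (FBgn0013275) had 72.8 in V2, 1.9 and 9.2 in V1 and V3, and 9.6, 1.7 and 2.8 in D1, D2 and D3. Their ratios were 14.9 (10.3 to 22.2) and 7.56 (3.84 to 16.6).

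The Hsp70 copies are nearly identical in sequence, so the split of reads among them is uncertain. Hsp70Ab stood at 564.2 in V2 and 57.6 to 190.8 in the other 5. Hsp70Bbb, which did not reach 50, had 15 reads in V2 and 0 to 1 elsewhere. Hsp70Ba was not high in V2, with 53.1 there against 262.2 in V3. Hsp70Bb, which held most Hsp70 reads in every library, had 7839 in V2, 8965 and 6421 in V1 and V3, and 10711, 7286 and 12366 in D1, D2 and D3. Summed over the 6 copies, V2 had 8992 normalized counts, V1 and V3 9051 and 6763, and D1, D2 and D3 10973, 7415 and 12569. The Hsp70 sum was therefore not raised in V2 (0.715 times the highest other library), although 2 of its copies met the rule. Without Hsp70Bb the other 5 copies summed to 1153 in V2, against 86.3 and 342.8 in V1 and V3 and 129.2 to 262.1 in the dorsal libraries.

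Beyond the 4 members, heat shock genes were uneven and as a list were not raised above the highest other library, whereas the small heat shock genes were. Of the 10 other genes whose symbol begins with Hsp and whose mean was at least 10 normalized counts, V2 was the highest library in 3 (Hsp23, Hsp26 and Hsp70Ab), or 30%, against 24.7% of all 8758 genes outside the 56 at that mean. The median log2 ratio of V2 to the highest other library (levels plus 1) was -0.54 over the 10, against -0.39 over the 8758. This list was drawn up after the values were seen. The small heat shock gene Hsp26 stood at 35971 in V2, at 5149 and 11292 in V1 and V3, and at 12144, 7303 and 9705 in D1, D2 and D3. Hsp23 stood at 42610 in V2, at 6955 and 20654 in V1 and V3, and at 13623, 18518 and 16232 in the dorsal libraries. Both were highest in V2 and lowest in V1, the other ventral library with many genes of its own. The 6 small heat shock genes, the member Hsp67Bc among them, summed to 94867 in V2, 1.97 times the highest other library. Their sum was 23773.5 and 48152 in V1 and V3, and 40202.2 to 41990.5 in the dorsal libraries. The co-chaperone gene DnaJ-1 had 3274 in V2 and 1267 to 1530 in the others. In contrast Hsp27 had 15674 in V2 within a range of 11540 to 16053 in the others, and Hsp83, the fly Hsp90, had 138305 in V2 within 99345 to 211012. The mitochondrial chaperone Hsp60A had its lowest level in V2, at 3063 against 3476 to 6231.

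**Figure D3:**
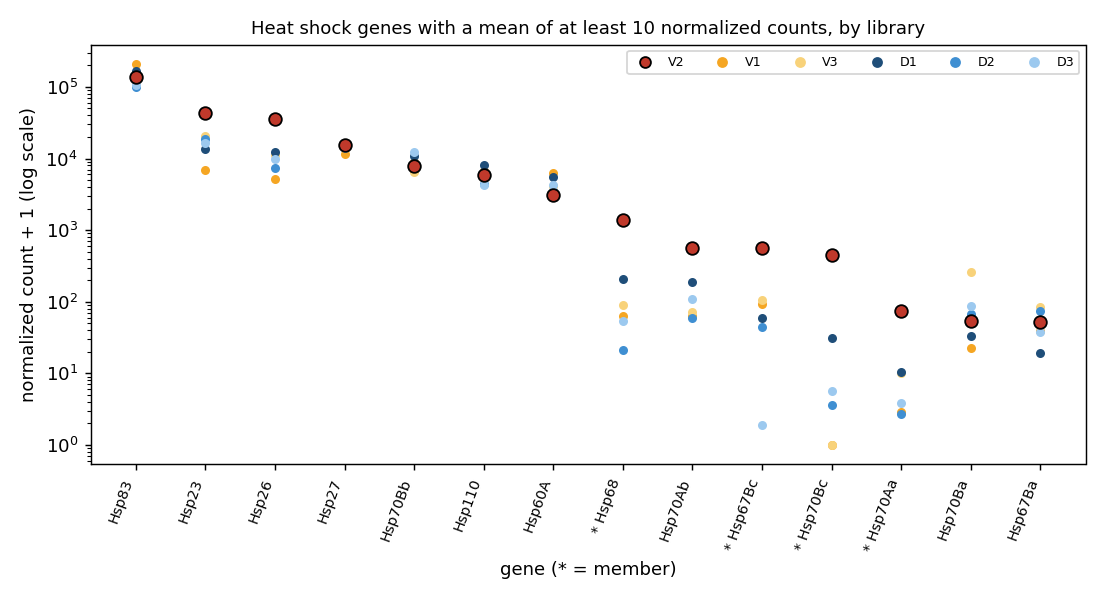
Levels of the 14 heat shock genes with a mean of at least 10 (horizontal, ordered by V2; asterisks mark the 56 genes), in normalized counts plus 1 on a log scale, 1 point per library. Hsp68, Hsp67Bc, Hsp70Bc and Hsp70Aa in V2 lie above every other library, while Hsp70Bb, Hsp83 and Hsp60A do not.

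The stress list, which holds 3 of the 56 genes (Hsp68, Hsp70Aa and Hsp70Bc), had V2 highest in 6 of its 17 other measured genes (35.3%, against 24.7%), with a median log2 ratio of -0.33. Its stress signalling gene puc, a phosphatase induced by JNK signalling, had 3094 in V2 and 625.8 to 1648 in the others. Other members of the list did not follow: Thor had 1863 in V2 and 1258 to 5547 in the others, and GstD1 had 30840 in V2 within 28712 to 32416.

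Another 9 genes, grouped after their values were seen, have roles in neurons. The active zone scaffold gene brp (FBgn0259246, chromosome 2R, 9503765 to 9541565) had 523.5 normalized counts in V2, 167.8 and 154.0 in V1 and V3, and 84.8, 55.0 and 108.5 in D1, D2 and D3. IA-2, a gene for a tyrosine phosphatase-like protein of dense-core vesicles, had 375.3 in V2, 77.8 and 16.3 in V1 and V3, and 3.9, 60.2 and 123.6 in D1, D2 and D3. V2 was highest for both, and the next library differed, V1 for brp and D3 for IA-2.

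Of the 9, 3 encode calcium channel subunits or a calcium-binding protein. The α2δ calcium channel subunit gene stj (FBgn0261041, chromosome 2R, 13805794 to 13819571) had 328.4 in V2, 78.7 and 29.6 in V1 and V3, and 16.4, 17.5 and 25.5 in D1, D2 and D3. The L-type channel gene Ca-alpha1D had 223.5 in V2, 26.6 and 47.9 in V1 and V3, and 50.1, 50.6 and 69.8 in D1, D2 and D3. The calbindin gene Cbp53E lay close to the floor, with 51.9 in V2, 0 and 3.1 in V1 and V3 and 4.8, 13.1 and 11.3 in D1, D2 and D3. The presynaptic channel gene cac, whose protein α2δ subunits accompany, was not raised, with 498.8 in V2, 431.5 and 406.0 in V1 and V3, and 950.3 to 1848 in the dorsal libraries.

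Genes of acetylcholine, the main excitatory transmitter of the fly brain, formed a pair. ChAT, which encodes the enzyme that makes acetylcholine (FBgn0000303, chromosome 3R, 18705501 to 18732344), had 190.1 in V2, 49.3 and 3.1 in V1 and V3, and 7.7, 27.9 and 25.5 in D1, D2 and D3. The choline transporter gene ChT had 86.4 in V2, 6.6 and 11.2 in V1 and V3, and 3.9, 6.1 and 9.4 in D1, D2 and D3. The genes lie 18762 bp apart with 4 measured genes between them. Genes of other transmitters were not highest in V2 alone. VGlut had 132.1 in V2 and 716.0 in V1, against 92.8 to 150.1 in V3 and the dorsal libraries. Gad1 had 53.1 in V2 and 79.7 in V1, against 0 to 7.9 in V3 and the dorsal libraries. VGAT had 4.9 in V2 and 48.4 in V1, against 3.8 to 29.9 in V3 and the dorsal libraries. The vesicular monoamine transporter gene Vmat was an exception, with 527.2 in V2 and 61.6 to 219.3 in the others, a ratio under the threshold.

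The other 2 genes of the neuronal group encode receptors. The dopamine receptor gene Dop1R2 (FBgn0266137) had 80.3 in V2, 5.7 and 1.0 in V1 and V3, and 0, 7.0 and 2.8 in D1, D2 and D3, a ratio of 11.5 (5.50 to 27.7). Pdfr, the receptor gene of the clock neuropeptide PDF, had 123.5 in V2, 7.6 and 8.2 in V1 and V3, and 40.5, 16.6 and 16.0 in D1, D2 and D3. Channel and receptor genes as a list were not raised above the highest other library. Beyond Ca-alpha1D and Dop1R2, V2 was highest in 11 of 39 measured genes (28.2%, against 24.7%), and their median log2 ratio of V2 to the highest other library was -0.94, against -0.39. Over the whole list the median log2 ratio of V2 to the median of the others was 0.64, against 0 over all genes. The 49 listed genes summed to 4669 in V2 and 5602 in V1, against 2952 to 3656 in V3 and the dorsal libraries. Dop1R1, another dopamine receptor gene, had 66.7 in V2 and 8.7 to 29.7 in the others. The glutamate-gated chloride channel gene GluClalpha, in contrast, had 12.3 in V2 and 342.3 in V1, and the acetylcholine receptor subunit gene nAChRalpha2 had 14.8 in V2 and 171.6 in V1. The pacemaker channel gene Ih had its lowest level in V2, at 38.3 against 38.8 to 263.6. For transmitter genes other than ChAT, V2 was highest in 1 of 6 (16.7%). The 12 listed transmitter genes, ChAT among them, summed to 969.2 in V2 and 1179 in V1, against 241.6 to 369.3 in V3 and the dorsal libraries.

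Pan-neuronal genes as a list were more often highest in V2, with exceptions. Beyond brp, V2 was the highest library in 12 of 21 measured genes (57.1%, against 24.7%), and the median log2 ratio was 0.07, against -0.39. The summed level of the 24 listed genes in the table was 59631 in V2, 37215 and 35178 in V1 and V3, and 31047 to 42185 in the dorsal libraries. The neuronal RNA-binding protein genes elav and fne had 14663 and 12875 in V2, against 5808 to 12834 and 5386 to 8967 in the others. The synaptic vesicle genes nSyb and Syn were highest in V1. Of these nSyb had 166.7 in V2 and 975.8 in V1, against 15.3 to 40.6 in V3 and the dorsal libraries. Syn had 3.7 in V2 and 80.6 in V1, against 4.8 to 18.4 in V3 and the dorsal libraries. The part of neuronal RNA in the 56 genes was not tested.

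**Figure D4:**
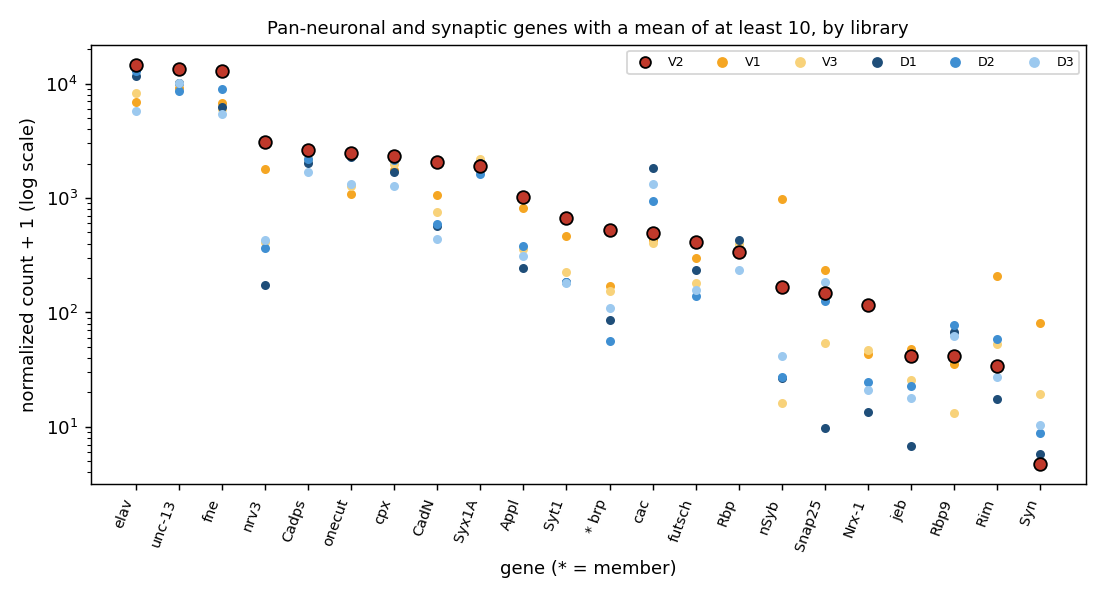
Levels of the 22 pan-neuronal and synaptic genes with a mean of at least 10 (horizontal, ordered by V2; the asterisk marks brp), in normalized counts plus 1 on a log scale, 1 point per library. V2 is the highest point for 13 genes, whereas V1 is highest for nSyb, Rim and Syn.

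Glial genes as a list were not high in V2. Gat (FBgn0039915, chromosome 4, 629691 to 635350), a GABA transporter gene known from astrocyte-like glia, was the third most abundant member, with 655.6 in V2, 47.4 and 140.8 in V1 and V3, and 144.5, 84.6 and 101.0 in D1, D2 and D3. Of the 12 other glial genes V2 was highest in 1 (8.33%), Gli. The defining glial transcription factor gene repo had 4.9 in V2 and 3.9 to 75.9 in the others, the astrocyte gene alrm 2.5 in V2 and 0 to 152.7 in the others, and wrapper 12.3 in V2, its lowest level of all. The summed level of the 13 genes was 33558 in V2, 37179 and 26255 in V1 and V3, and 31849 to 32190 in the dorsal libraries.

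By a grouping made after their values were seen, 10 further members encode surface, signalling and patterning proteins. RSG7, a regulator of G protein signalling, had 277.8 in V2, 64.5 and 54.1 in V1 and V3, and 11.6, 42.8 and 4.7 in D1, D2 and D3. The Sidestep family immunoglobulin gene side-VIII had 255.6 in V2, 55.9 and 4.1 in V1 and V3, and 38.5, 21.8 and 13.2 in D1, D2 and D3. The leucine-rich repeat gene Fili had 135.8 in V2, 0.95 and 3.1 in V1 and V3, and 9.6, 20.1 and 13.2 in D1, D2 and D3. In Fili the dorsal libraries lay above V1 and V3, and in RSG7 V1 and V3 lay above the dorsal libraries, so the genes did not share an order below V2.

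The zinc finger transcription factor gene tsh (FBgn0003866, chromosome 2L, 21828593 to 21837011, plus strand), a homeotic gene of the trunk that also acts in the eye, had 151.9 in V2, 18 and 15.3 in V1 and V3, and 1.9, 7.0 and 8.5 in D1, D2 and D3. V2 was 8.43 times the next library (5.17 to 14.5), and V1 and V3 lay above all 3 dorsal libraries. Its paralog tio had 5 reads in V2 and 0 to 5 in the others. The clock gene tim had 54.3 in V2, 2.8 and 7.1 in V1 and V3 and 6.7, 3.5 and 5.7 in the dorsal libraries. Its partner per had 1 read in V2 and 0 to 9 in the others, so the pair was not raised together. Epac (a cAMP-activated exchange factor, 77.8 in V2), TM4SF (a tetraspanin, 69.1), mthl7 (a methuselah-like receptor, 61.7), sosie (a membrane protein, 86.4) and Ir51b (an ionotropic receptor family gene, 156.8) had ratios between 4.07 and 7.62.

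Most of the remaining 32 members have no established role that can be stated here: 26 are protein-coding, most with CG numbers only, and 6 are noncoding. The largest ratio of all belonged to CG1631 (FBgn0031101, chromosome X), with 52 reads in V2, 0 in V1 and V3, and 1, 2 and 2 in D1, D2 and D3. That ratio of 34.0 has a counting interval of 8.95 to 288. CG13321 had 54 reads in V2 and 0 to 4 elsewhere, a ratio of 19.1 (7.04 to 72.6), and CG7091 had 50 in V2 and 0 to 5 elsewhere, a ratio of 14.1 (5.68 to 45.5). CG17681 (97.5 in V2, ratio 10.2), CG32683 (53.1, 10.1), lncRNA:CR30121 (56.8, 10.8), CG6980 (123.5, 9.15) and the glycosyltransferase gene Ugt49C1 (87.7, 9.13) followed. These 8 had at most 13.5 normalized counts in any other library.

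Among the more abundant of this group, CG42458 had 309.9 normalized counts in V2 and 29.7 to 97.3 in the others, CG12531 had 261.7 and 15.7 to 64.5, and Myo81F, a myosin gene, had 240.8 and 6.7 to 44.5. The antisense RNA asRNA:CR45621 (chromosome X, 12612108 to 12615780) was the second most abundant member, with 972.9 in V2, 170.7 and 116.3 in V1 and V3, and 170.5, 294.1 and 222.7 in D1, D2 and D3. It shares 1332 bp of exon with Fpgs1 on the other strand, and no source used here says if reads were counted by strand. Fpgs1 itself was not raised, with 243.2 in V2 and 181.1 to 353.9 in the others. The members not yet named had 50.6 to 153.1 normalized counts in V2 and ratios of 3.08 to 7.37: CG42393, CG32192, CG11085, lncRNA:CR34044, CG4462, CG5348, CG13436, CG18586, hog, CG18368, CG33679, asRNA:CR44095, Ugt37D1, lncRNA:CR44965, lncRNA:CR43765, CG42346, CG14238, ms(3)76Cc and Ect3.

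**Figure D5:**
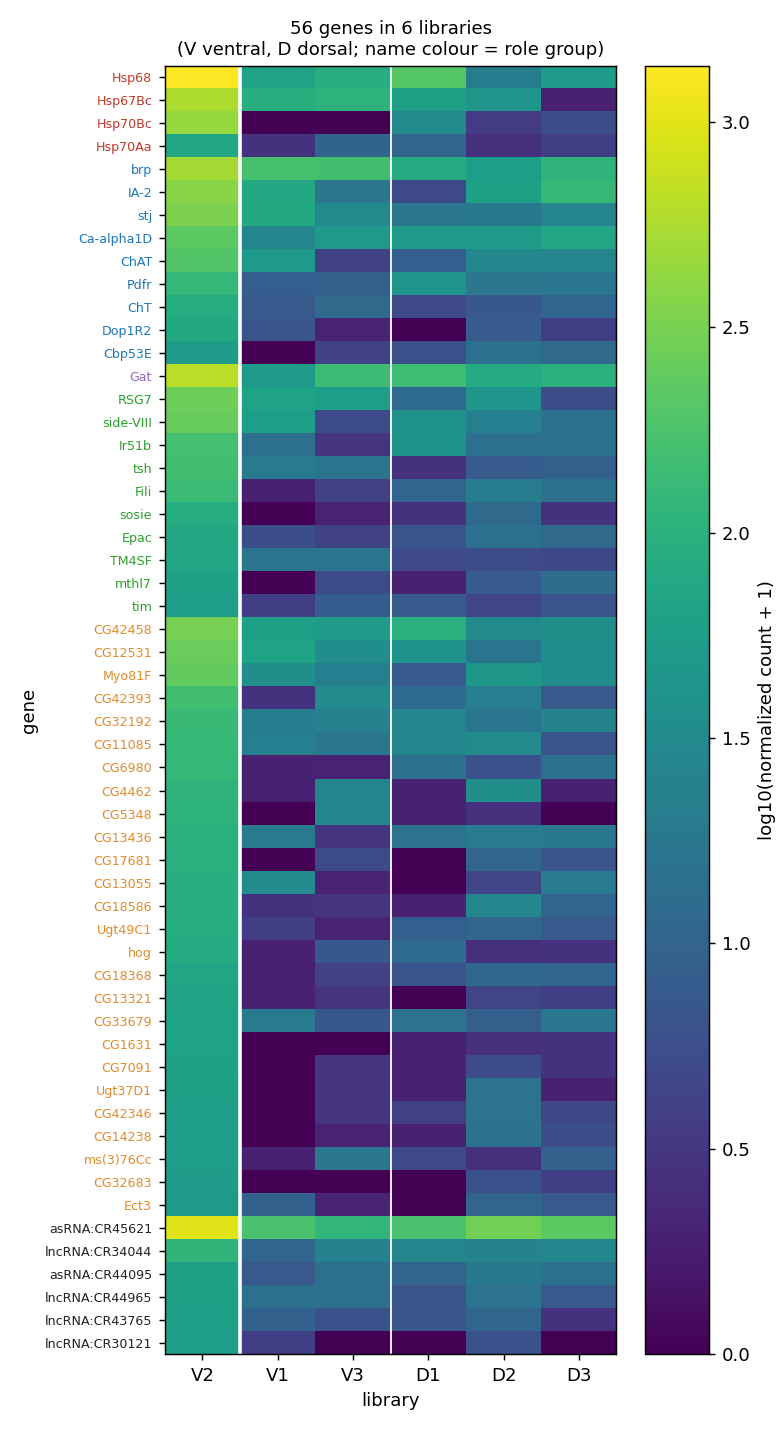
Levels of all 56 genes (rows, by role group and then by level in V2; name colours mark the groups) in the 6 libraries (columns), as log10 of the normalized count plus 1. V2 is the brightest column in every row, and the other 5 columns show no order that holds across rows.

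Below V2 the members did not follow the sides of the tissue. The highest of the other libraries was D2 for 24 of the 56 genes (42.9%), V1 for 10, D1 for 10, V3 for 7 and D3 for 5. Over all 7298 genes at 50 or more in V2, D2 was the highest other library in 18.5% and V1 in 28.7%. Among the 42 members at 50 to 200 in V2, D2 was highest in 52.4%, against 20.1% of the 962 genes at that level. The rule removed 43 genes by V1 alone, so the shares among members are partly set by the choice of genes. D2 is also the library with the most reads, and it had a read of every member, whereas V1 had none for 12. The median level of the 56 genes was 13.5 in D2 and 6.12 to 8.97 in the other 4 libraries.

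The genes were spread over the chromosomes. Of the 56, 10 lie on X (17.9%, against 17.7% of genes at 50 or more in V2), 15 on 3R (26.8%, against 23.9%), 14 on 2R (25%, against 20%), 8 each on 2L and 3L and 1 on chromosome 4. The median exon length was 2.34 kb, against 2.16 kb. Noncoding genes made up 10.7%, against 3.62%. Per kilobase of exon, Hsp68 (614 normalized counts per kb in V2) and Hsp67Bc (569) stood highest, and CG42346 (6.07) and tim (7.72) lowest.

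Among members there were 2 directly adjacent pairs. CG32192 and CG42393 lie 995 bp apart on 3L, both within the span of Eip75B on its other strand, and had 127.2 and 153.1 normalized counts in V2. Eip75B, an ecdysone-induced nuclear receptor gene, had 2366 in V2 and 641.4 to 1918 in the others, a ratio of 1.23. On X, asRNA:CR45621 and CG11085 lie 536 bp apart, and CG11085 had 124.7 in V2 and 5.7 to 30.5 elsewhere. In all, 11 members lie within the span of another measured gene, 2 of them on the same strand, and V2 was the highest library for the host of 4. The host of CG1631, CG1504, had 21 reads in V2 and 0 to 3 elsewhere. CG18368 lies within tei on the same strand, and tei had 671.6 in V2 and 172.8 to 292.1 in the others, so reads of this pair may not be separable. Of the 61 flanking genes with a mean of at least 10, V2 was highest in 13 (21.3%), against 25.1% of all genes. Exons of 13 members (23.2%) overlap exons of another measured gene, against 40.1% of genes at 50 or more in V2.

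No member marks a spatial domain of the outer proliferation centre. Of 10 measured spatial genes, V2 was highest in 2 (20%, against 24.7% of genes outside the 56). Vsx1, which marks the central domain, had 435.8 in V2, 98.6 and 164.2 in V1 and V3, and 334.3, 158.8 and 117.0 in D1, D2 and D3. Optix, of the flanking domain, had 4340 in V2 and 2692 to 6170 in the others. Genes of the tips lay at their lowest in V2: Rx had 0 reads there against 212.4 normalized counts in V1 and 3.8 to 72.4 in the other 4, and dpp had 107.4 against 295.8 to 2170. The count of 0 for Rx allows up to 3 reads, and its part in the 56 genes was not tested.

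Lists of other regions and stages of the brain held no member except Dop1R2, which is on the mushroom body list. For the inner proliferation centre V2 was highest in 0 of 7 measured genes. TfAP-2 had 417.3 in V2 and 669.5 in V1, against 1.9 to 77.5 in V3 and the dorsal libraries. The gene ato had 0 to 0.9 in every library. For medulla temporal factors V2 was highest in 3 of 11 (27.3%), with D at 3406 in V2 and 750.3 to 2128 in the others, and ey at its lowest there, 519.8 against 609.7 to 1509. For lamina genes it was highest in 3 of 9, with sim, a lamina precursor gene, at 892.6 in V2 and 150.8 to 482.7 in the others. For mushroom body genes other than Dop1R2 it was highest in 2 of 9, and toy had 211.1 in V2 and 187.7 to 975.8 in the others. For neuroblast genes it was highest in 5 of 16 (31.2%), which were brat, l(1)sc, sc, ac and scrt. Of these l(1)sc had 14049 in V2 and 4366 to 9859 in the others. Other genes of the list lay low in V2. There wor had 3447, against 2701 to 12986 in the others, and pros had 2316, against 2554 to 6140. For neuroepithelial genes V2 was highest in 4 of 14 (28.6%). Their summed level was 48872 in V2, 45692 and 43483 in V1 and V3 and 39483 to 50555 in the dorsal libraries.

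Lists of cells outside the nervous system held no member. For the 22 listed genes of blood, fat body, muscle, trachea and ring gland the summed level was 724.7 in V2, 910.4 and 879.3 in V1 and V3, and 501.0 to 846.5 in the dorsal libraries. No Hox gene reached a mean of 10, with 0 to 9.9 normalized counts per gene in V2. In all, 7 of 30 lists held a member, and 9 of the 56 genes were on any list.

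With V2 left out, none of the 56 genes passed the test between ventral and dorsal cells. Ventral was compared with dorsal by edgeR over V1 and V3 against D1, D2 and D3, where 6 of 9102 genes were called higher (0.0659%) and 3 lower (0.033%) in ventral at an adjusted p under 0.05. A low-count filter passed 35 of the 56, and 0 were called in either direction. None of the 35 had an unadjusted p under 0.05 by edgeR, against 4.95% of all genes, while DESeq2 gave 2 of the 56 such a p and called none, and limma-voom gave 1 of the 35 and called none. The rule had capped V1, V3 and the dorsal libraries against V2, so a gene as high in V1 or V3 as in V2 could not be a member. The lack of calls is thus partly set by the choice, and nothing is read from it or from these shares. Of the 35, 16 had a higher fitted level in ventral, and the median log2 fold change (ventral minus dorsal) was -0.08, with a range of -3.29 to 1.89 and a median of 0.00 over all genes. For example, brp had 0.96 ± 0.57 (SE, adjusted p = 0.999, edgeR), stj 1.44 ± 0.88 (0.999), Hsp68 -0.28 ± 0.94 (0.999) and CG6980 -3.29 ± 1.47 (0.992).

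With V2 in the comparison the fitted differences are partly fixed by the choice of genes and are given as a description. Over all 6 libraries 6 of 8707 genes were called higher (0.0689%) and 2 lower (0.023%) in ventral, and 0 of the 32 members that passed the filter were called. The unadjusted p was under 0.05 for 7 of them (21.9%, against 3.2% of all genes), and DESeq2 gave 13 such members and called none. Because V2 chose these genes, their direction was set beforehand and nothing is read from these shares. The median log2 fold change of the 32 was 1.64. The largest was that of tsh, at 3.35 ± 1.18 (SE, adjusted p = 1.00, edgeR), and stj had 2.85 ± 0.91 (1.00). With limma-voom and sample weights the median over the same 32 genes was 0.25, and 0 were called.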

How the data were processed

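Polyadenylated RNA of 3 ventral and 3 dorsal pools of optic lobe neuroepithelial cells was amplified with SMART-Seq v4 and made into libraries with Nextera XT, per the labels' protocols. The authors deposited a table of counts (whole reads per gene) and a table of normalized values, treated here as a signal, which equal the counts divided by 1 size factor per library (largest difference 5.2e-05). The submitters' processing notes list DESeq2, featureCounts and Trimmomatic and the builds dm6 and BDGP6. No source used here states the aligner, any version or whether counting used strand. Names and positions came from a BDGP6 annotation, which held 17253 of 17559 identifiers (98.3%) and all 56 members.

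The members, gene lists and tests were chosen with earlier results of these data known. Levels were compared as normalized counts. Intervals of a ratio are exact binomial 95% intervals (scipy 1.17.1). Ventral was tested against dorsal on the counts with edgeR 4.0.16 (robust quasi-likelihood test with TMM factors, genes kept by filterByExpr, side as the single term) across all genes in R 4.3.3, with Benjamini-Hochberg adjustment and a threshold of 0.05, and checked on simulated data. Alternatives were RLE factors, limma-voom (limma 3.58.1) weighting the samples, DESeq2 1.42.0, no filter, the replicate number as a block, each library left out in turn, and other thresholds and scalings of the rule. Named genes were the 15 members with the largest ratios, the 15 with the highest levels, list members, those beside the threshold, those next to another member, and called members, plus genes of the marker lists; other genes named were chosen after their values were seen. No 2 libraries agreed within sampling noise (chi-square per degree of freedom 50.42 to 212.8).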

Additional observations from a re-analysis of the deposited data

How the results depend on the processing

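The count of 56 genes follows from its thresholds: it was 131 at 2-fold, 26 at 5-fold, 133 with a floor of 20 and 27 with a floor of 100. With TMM-scaled counts it was 49 and with library totals 48, all among the 56. Leaving out 1 of the other libraries gave 67 to 99, the highest without V1. At 5-fold the pan-neuronal, transmitter, guidance and glial lists each held 0 genes, against 1 of the 56 each, and the stress list held 3 in both settings.

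Calls between ventral and dorsal over 6 libraries were 32 higher and 13 lower with DESeq2, which included all 8 main calls, and 4 lower with no filter on low counts. Leaving out 1 library gave 2 to 6 higher, with 2 without D1, and 2 to 3 lower, with 3 without V2. Without V2 (5 libraries) DESeq2 called 23 higher and 17 lower, no filter gave 11 and 7, and limma-voom 3 and 0. Leaving out a further library gave 1 to 7 higher (1 without D1 or V1, 3 without D3, 7 without V3) and 2 lower in every case. With V1 or V3 left out, the spread of the single ventral library is taken from the dorsal group. The cause of these differences was not tested. No member was called in any of these fits.

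Deviations from the group means were nearly uncorrelated between libraries of the same number (0.00309, -0.0368 and 0.0588). The labels do not say whether libraries of the same number share a cross or collection day. Correlations from so few libraries cannot decide it. With a replicate block 5 genes were higher and 2 lower in ventral over 6 libraries, 4 and 4 over 5 libraries, and no member was called. Promoter motifs were planned and not run. With 41 reads at the floor, ratios of the least abundant members are imprecise.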

Other observations

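Leaving V1 out of the rule added 43 genes. In these V2 was at least 3 times V3 and each dorsal library, and under 3 times V1. Not all were high in V1: Cpr60D had 23.7 there, against 15.1 to 21.8 in V3 and the dorsal libraries. V1 lay above V2 in 14 of the 43 genes. Several are neuronal. The sodium pump subunit gene nrv3 had 3116 normalized counts in V2 and 1806 in V1, against 172.5 to 433.2 in V3 and the dorsal libraries. The synaptotagmin gene Syt4 had 959.3 in V2 and 612.6 in V1, against 90.6 to 180.6. The axon guidance receptor gene robo3 had 238.3 in V2 and 93.9 in V1, against 15.3 to 42.4. The active zone gene Fife had 86.4 in V2 and 65.4 in V1, against 7.6 to 11.3. The noncoding RNA lncRNA:CR45312 had 222.2 in V2 and 124.2 in V1, against 0 to 7.9. These genes were chosen by their levels, so the values are a description.

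Guidance and adhesion genes, of which side-VIII alone is one of the 56, were often highest in V2, in 27 of the 57 other measured genes (47.4%, against 24.7% of genes outside the 56). The median log2 ratio of V2 to the highest other library was -0.03 over the 57, against -0.39. The summed level of the 66 listed genes was 151150 in V2, 79023 and 102686 in V1 and V3, and 106537 to 119040 in the dorsal libraries. The receptor gene Eph and its ligand gene Ephrin had 21479 and 24940 in V2, against 7799 to 12930 and 6803 to 14599 in the others. Dscam2, an immunoglobulin receptor gene, had 2908 in V2 and 510.2 to 1107 in the others. For all 3 genes V1 held the lowest level. Those of the 57 outside the 27 were not highest in V2. Among them beat-Ia had 17.3 in V2 and 121.4 in V1, and kek2 had 3.7 in V2 and 129.9 in V1. Ten-a had 3777 in V2 and 1666 to 7015 in the others.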
